A study of Mus musculus with 6 samples.

Results

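Cytosolic ribosomal protein genes, which encode the proteins of the cell's translation machine, were followed here in CD4+ T cells sorted from mouse liver. The members were the 86 rows of the deposited count table whose symbols follow the Rps and Rpl naming pattern, with Rpsa, Rplp0, Rplp1 and Rplp2 added and hyphenated pseudogene symbols left out, of 28430 rows in all. By symbol prefix, 33 were assigned to the small (40S) subunit and 53 to the large (60S) subunit. This rule kept Rpl6l, Rpl32l and Rps4l, which have no annotated coding sequence. Of these, Rpl6l and Rpl32l are annotated as processed pseudogenes. The groups were 3 libraries labelled dKO, from mice with floxed alleles of both Nr4a1 and Nr4a2 (Nr4a1 fl/fl, Nr4a2 fl/fl) and a Cd4Cre transgene, and 3 labelled WT. The study was made in mice with steatohepatitis caused by a choline-deficient, high-fat diet, and it asked how loss of the nuclear receptors Nr4a1 and Nr4a2 in T cells alters the disease. Whether the WT mice carried the floxed alleles or the Cre was not stated, nor were the age and sex of the mice behind these 6 libraries, which had been on the diet for 8 weeks. Cre under the Cd4 promoter acts in all T cells that pass through the CD4-expressing stage, so Nr4a1 and Nr4a2 were targeted in CD8+ T cells of the dKO mice as well.

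Each mature ribosome holds a single copy of nearly every ribosomal protein, and cells make these proteins in matched amounts. Their mRNAs are short, abundant and long-lived, and most start with a run of pyrimidines, the 5′ terminal oligopyrimidine (TOP) tract, through which mTOR signalling and the binding protein Larp1 control their translation. A T cell leaving rest enlarges this machinery before it divides. A few ribosomal proteins have a second gene, such as Rpl22l1 for Rpl22, and some act outside the ribosome, such as Rpl5 and Rpl11, which bind the p53 regulator Mdm2 when ribosome assembly fails.

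Start-site sequences are printed below for members at both ends of the range of fold changes and for the Rpl22 pair. Capitals mark the longest pyrimidine run anywhere in each window, which need not be a TOP tract. The marked run of Rpl22 begins 10 bases before the start and that of Rps27l 12 bases before it, and both end before it. Each covers 15 bases on either side of the RefSeq transcription start on build GRCm38.p6 and is read along the gene's own strand.
Rps13, chr7:116334176-116334205, minus strand: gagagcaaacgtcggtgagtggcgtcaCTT
Rps2, chr17:24720048-24720077, plus strand: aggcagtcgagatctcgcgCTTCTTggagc
Rpl13a, chr7:45128731-45128760, minus strand: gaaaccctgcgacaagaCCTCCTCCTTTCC
Rps6, chr4:86857353-86857382, minus strand: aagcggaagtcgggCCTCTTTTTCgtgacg
Rpl22, chr4:152324421-152324450, plus strand: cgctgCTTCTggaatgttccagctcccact
Rpl22l1, chr3:28805493-28805522, plus strand: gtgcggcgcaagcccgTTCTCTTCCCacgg
Rps27l, chr9:66946071-66946100, plus strand: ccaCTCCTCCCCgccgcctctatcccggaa
Rpl41, chr10:128549154-128549183, minus strand: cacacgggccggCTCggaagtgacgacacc

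RefSeq starts were matched by symbol for 64 of the 86 members. A run of at least 6 letters that were each C or T, searched on the gene's own strand, lay in the window of 39 of the 64 (60.9%), against 32.7% of the 27025 genes in the RefSeq table. Runs of at least 10 letters were found in 32.8% of the members and in 6.25% of all genes. For mitochondrial ribosomal protein genes, whose products work in the mitochondrion's own ribosome, the shares were 34.8% and 8.70% of 69 genes. Among the genes printed, Rpl13a had a run of 13, Rps6 and Rpl22l1 runs of 10, and Rps13 and Rpl41 none longer than 3. A gene with several RefSeq starts was counted by the start with its longest run.

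The libraries held between 5747744 and 8740564 counted reads in the dKO group, against 7124553 to 11078184 in the WT group. The targeted genes were not lower in the libraries labelled dKO: Nr4a2 lay between 392 and 541 CPM (counts scaled to 1000000 reads per library with TMM factors) in dKO, against 160 to 286 CPM in WT, and it was called higher (log2 fold change 1.05, edgeR adjusted p = 0.031). Nr4a1 had 642 to 1037 CPM in dKO, against 330 to 821 CPM in WT. The counts cover whole genes, so reads outside a deleted part would still be counted. Whether such reads had a part in the Nr4a1 and Nr4a2 levels was not tested. Directions are given for libraries as labelled. The CD4 T cell markers summed to 3237 to 3480 CPM in dKO, against 3031 to 3355 CPM in WT, while both CD8 markers, Cd8a and Cd8b1, were called higher and summed to 296 to 338 CPM in dKO, against 199 to 237 CPM in WT. Their part in the results was not tested. Xist, made from the inactive X chromosome, had 1899, 796 and 1914 CPM in dKO 1 to 3, against 1656, 133 and 97.1 CPM in WT 1 to 3. Y-linked Ddx3y had 16.4, 280 and 29.9 CPM in dKO 1 to 3, against 32.2, 254 and 341 CPM in WT 1 to 3. Both WT 1 and dKO 2 thus stood apart from the other libraries of their group. In these bulk samples, fewer cells of a type and less RNA per cell cannot be told apart.

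Ribosomal protein mRNA was a sizeable share of each library, and its level followed single libraries more than the genotype. The member rows held 10.7%, 10.7% and 9.91% of counted reads in dKO 1 to 3, against 13.9%, 10.5% and 9.60% in WT 1 to 3. The means were 10.4% ± 0.452 in dKO and 11.3% ± 2.24 in WT (SD, n = 3 each), and the groups overlapped. WT 1 held the highest share, and without it the WT mean was 10.1%. A test of 3 against 3 libraries cannot give an exact two-sided permutation p under 0.1. Of the 83 members tested, 63 had their highest level in WT 1, 19 in dKO 1 and 1 in dKO 2. WT 1 was the lowest library for 2 members only, Rps4l and Rps27l. dKO 3 was the lowest library for 36 members, WT 2 for 22 and WT 3 for 20.

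**Figure D1:**
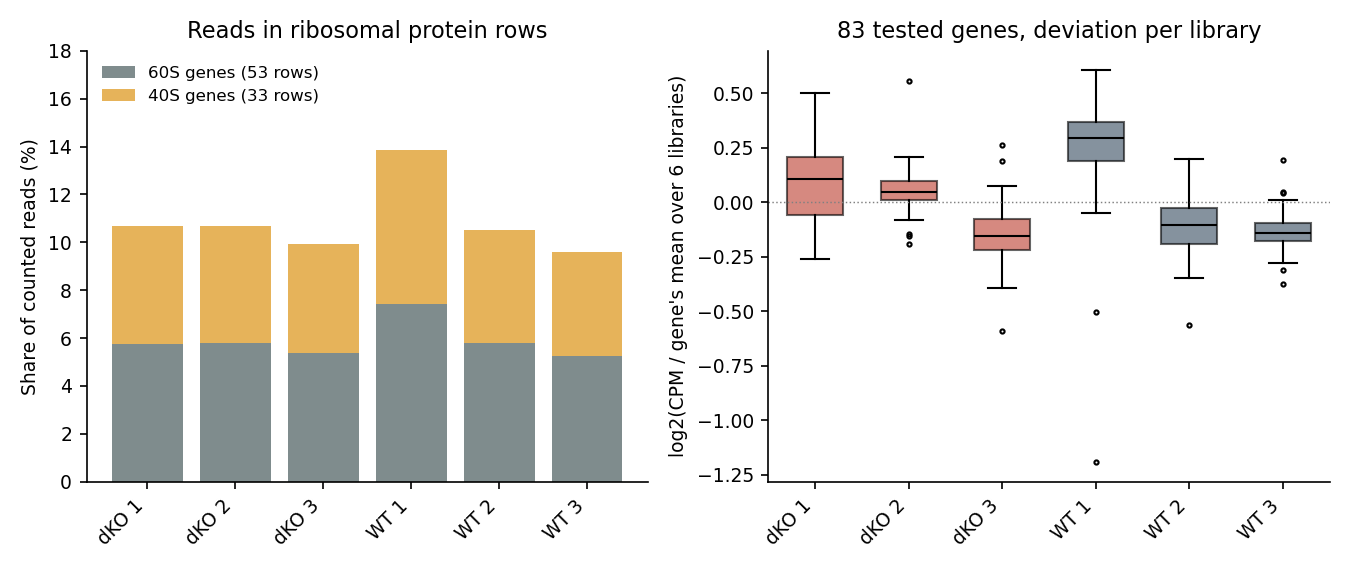
Left, percent of counted reads in the 53 60S and 33 40S ribosomal protein rows, stacked, for the 3 dKO and the 3 WT libraries. Right, boxes of the log2 deviation of each of 83 tested genes from its own mean over the 6 libraries, where boxes span the quartiles with the median as a line, whiskers reach 1.5 times the box height and points lie beyond. WT 1 is the highest bar, at 13.9%, and its median deviation is 0.29, against -0.15 to 0.10 in the other 5 libraries.

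The 2 subunits kept a similar balance of reads in every library. Summed 40S counts were 0.857, 0.850 and 0.849 times the summed 60S counts in dKO 1 to 3, against 0.868, 0.811 and 0.836 in WT 1 to 3. The ratio averaged 0.852 ± 0.00443 in dKO and 0.838 ± 0.0287 in WT (SD, n = 3 each), with overlapping groups. WT 1 thus had the highest ratio as well as the highest sum.

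No member passed the test between the genotypes. Of 83 members tested by edgeR's quasi-likelihood test, 0 were called higher and 0 lower at an adjusted p under 0.05, whereas 3.31% of all 15694 genes tested were called (2.15% higher and 1.17% lower). At an unadjusted p under 0.05, 6 members passed (1 higher and 5 lower), which is 7.23% of those tested against 19.2% of all genes. Without WT 1 this count was 18 (14 higher and 4 lower), or 21.7% against 19.96% of all genes. DESeq2 called 3 members lower (Rps13, Rps2 and Rpl29) and 0 higher, beside 5.05% of all genes with an adjusted p. The limma-voom fit called none in either direction, beside 3.17% of all genes. With limma on log2(CPM + 1) or log2(CPM + 0.1), 1 member, Rps13, was called lower, beside 3.72% and 3.22% of all genes. The median log2 fold change was -0.01 over the members and -0.01 over all genes, with 35 members above 0 and 48 below. Leaving out WT 1 put the members' median at 0.11 and 63 members above 0. The 95% interval of the log2 fold change lay within -1 and 1 for 82 of the 83 members, all except the sparsely counted Rps4l. It lay within a 1.5-fold change in either direction for 67 of them. Groups did not overlap for 7 members (2 higher and 5 lower), or 8.43%, against 25% of all genes.

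**Figure D2:**
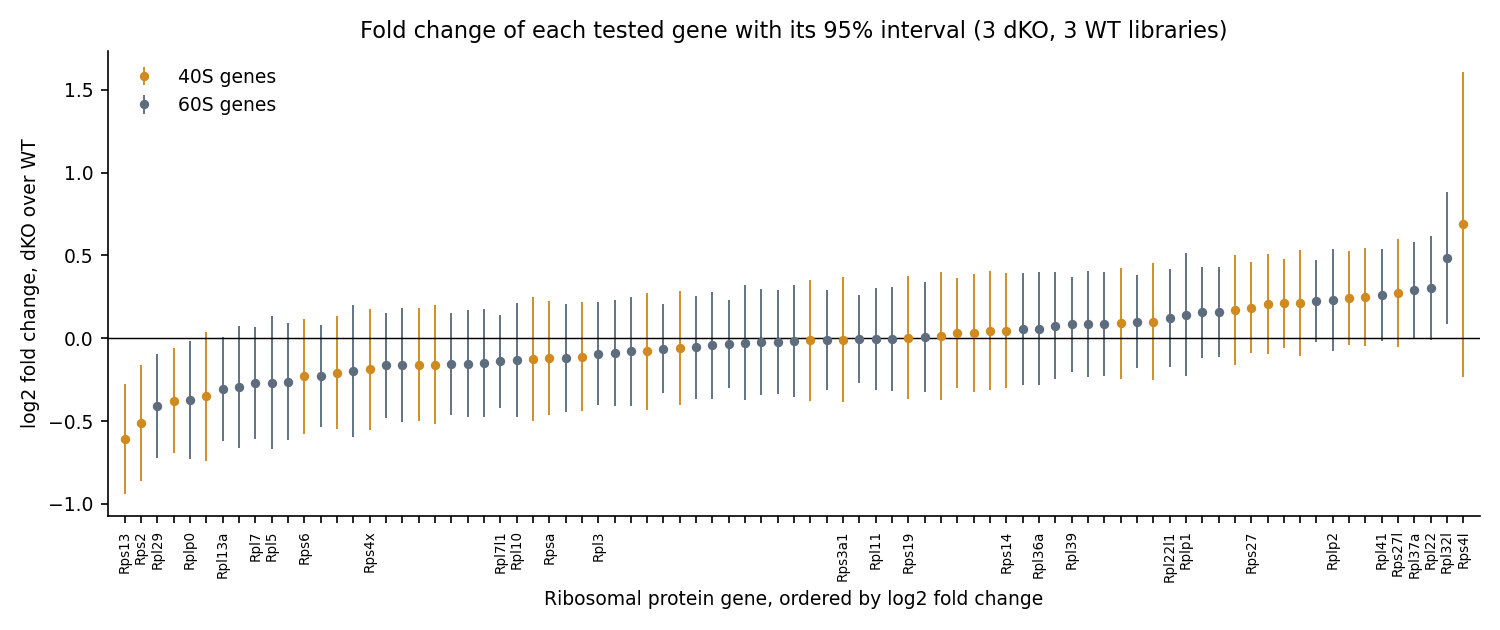
Log2 fold change, dKO over WT, of each of the 83 tested ribosomal protein genes with its 95% interval. Intervals are derived from the F statistic of edgeR's test. Genes are ordered by fold change and coloured by subunit, with some labelled. Fold changes run from -0.61 (Rps13) to 0.69 (Rps4l, which has the widest interval), and no gene is called.

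Among 40S genes, Rps13, which encodes a protein of the small subunit, had the lowest fold change and lay just outside the threshold. Rps13 had 548, 624 and 436 CPM in dKO 1 to 3, against 948, 752 and 752 CPM in WT 1 to 3. All dKO libraries lay below all WT libraries, and the log2 fold change was -0.61 ± 0.154 (SE, edgeR adjusted p = 0.0508). It was called lower under 9 of 20 alternatives, DESeq2 among them (adjusted p = 0.00289), and over all 20 its adjusted p ran from 0.000106 to 0.187. Its fold change lay between -0.73 and -0.49 when any 1 library was left out.

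Rps2, whose protein sits near the mRNA entry channel, followed, with 924, 981 and 860.5 CPM in dKO 1 to 3, against 1659.8, 1214 and 1071 CPM in WT 1 to 3. The groups did not overlap and the log2 fold change was -0.51 ± 0.162 (SE, adjusted p = 0.103), or -0.32 without WT 1. Rps6, the ribosomal substrate of S6 kinase, had 966, 1085 and 947 CPM in dKO, against 1483, 1023 and 1007 CPM in WT, and its groups overlapped (log2 fold change -0.23, adjusted p = 0.479). Rpsa, also known as a laminin receptor, had 3362, 3563 and 3517 CPM in dKO, against 4585, 3554 and 3216 CPM in WT, with overlapping groups. Rps14 and Rps19, a gene mutated in Diamond-Blackfan anaemia, had log2 fold changes of 0.05 and 0.00, with intervals from -0.30 to 0.39 and from -0.37 to 0.38.

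Among 60S genes, Rpl29 had the lowest fold change, with 1046, 1189 and 918 CPM in dKO 1 to 3, against 1576, 1371 and 1241 CPM in WT 1 to 3. No dKO library reached a WT library (log2 fold change -0.41 ± 0.144 SE, adjusted p = 0.141). Rpl13a, known in human cells for a role in silencing inflammatory transcripts, had 3294, 3754 and 3339 CPM in dKO, against 4797, 4082 and 3965 CPM in WT, again without overlap (log2 fold change -0.31, adjusted p = 0.274). At the other end, Rpl37a had 948, 770.0 and 796 CPM in dKO, against 772, 623 and 663 CPM in WT (log2 fold change 0.29, adjusted p = 0.265). Its dKO 2 lay just below WT 1.

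The genes of Rpl5 and Rpl11, which meet 5S rRNA before they enter the ribosome, did not pass the test. Rpl5 had 2731, 2905 and 2471 CPM in dKO 1 to 3, against 4297, 2765 and 2701 CPM in WT 1 to 3, the WT 1 value standing far above the other 5. Rpl11 had 1182, 1209.7 and 969 CPM in dKO, against 1284, 1080.3 and 1009 CPM in WT. Their log2 fold changes were -0.27 (95% interval -0.67 to 0.13) and -0.01 (-0.31 to 0.30).

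The stalk, which recruits translation factors to the 60S subunit, is built from Rplp0, Rplp1 and Rplp2, and its genes had fold changes of both signs. Rplp0, the base of the stalk, had 2367, 2618 and 2333 CPM in dKO 1 to 3, against 3869.9, 3061 and 2548 CPM in WT 1 to 3 (log2 fold change -0.37, unadjusted p = 0.0423, adjusted p = 0.237). Rplp1 had 3295, 3101 and 2555 CPM in dKO, against 3347, 2336 and 2430.3 CPM in WT (log2 fold change 0.14, adjusted p = 0.714). Rplp2 had 1216, 1083 and 998 CPM in dKO, against 1097, 839.6 and 873 CPM in WT (log2 fold change 0.23, adjusted p = 0.414). The groups overlapped for each of the 3 genes, and none passed the test. Per length, Rplp1 was also the most abundant member, at 5699 CPM per kilobase of its reference transcript, followed by Rps14 at 4813, Rpl13a at 3698 and Rps19 at 3603.

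**Figure D3:**
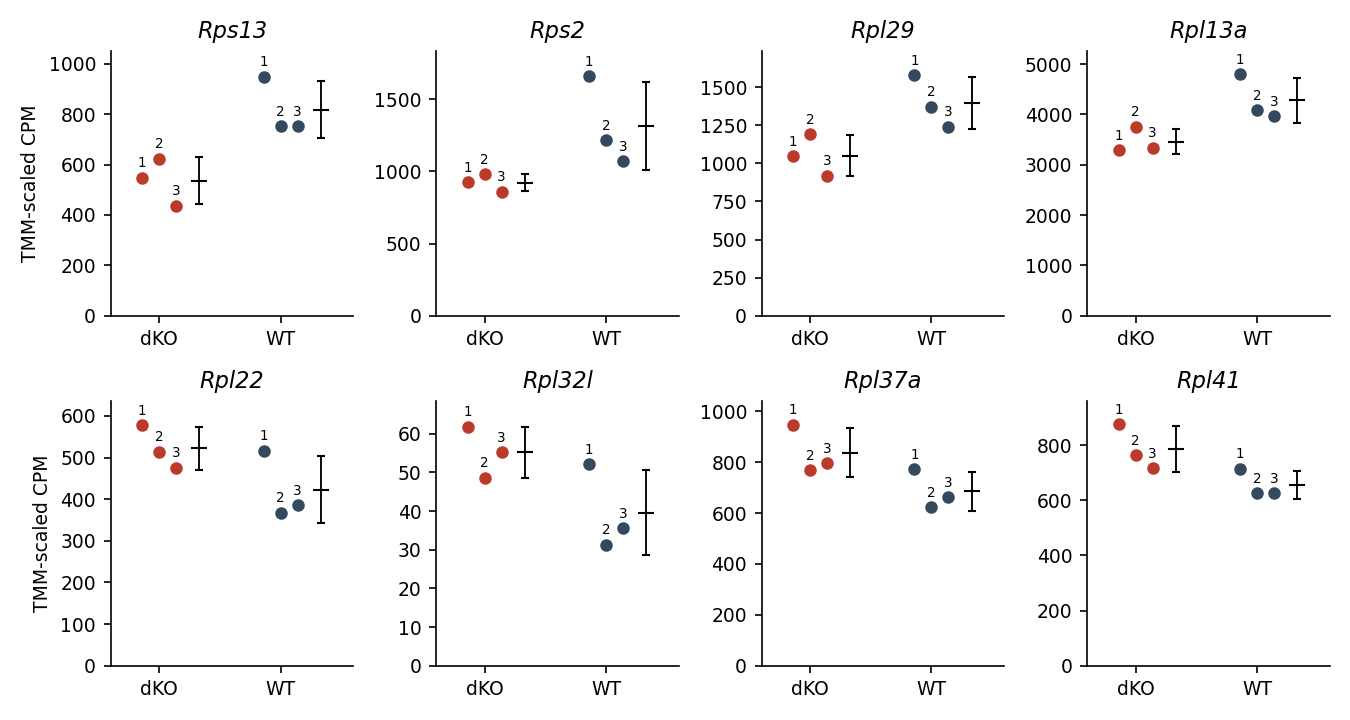
TMM-scaled CPM of 8 ribosomal protein genes in each dKO (left) and WT (right) library, numbered by replicate, with the mean and SD of each group (n = 3) as a bar. Rps13, Rps2, Rpl29 and Rpl13a lie lower in every dKO library than in any WT library, Rpl41 lies higher, and Rpl22, Rpl32l and Rpl37a overlap through WT 1.

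The duplicated genes were expressed at very different levels. Rpl22, which in T cells is known for its role in early thymocyte development, had 578, 514 and 476 CPM in dKO 1 to 3, against 517, 368 and 385 CPM in WT 1 to 3. WT 1 lay within the dKO range and the other WT libraries below it (log2 fold change 0.30, adjusted p = 0.275). Without WT 1, Rpl22 was called higher (log2 fold change 0.47, adjusted p = 0.0332, against 0.0332 to 0.616 over the 20 alternatives). Rpl22l1 had 327, 306 and 257 CPM in dKO, against 317, 229 and 271 CPM in WT. For every 100 Rpl22 counts there were 56.6, 59.5 and 54.0 Rpl22l1 counts in dKO 1 to 3, against 61.4, 62.3 and 70.3 in WT 1 to 3. The ratio was lower in each dKO library than in any WT library. Rpl22l1 shared 56.5% of its 50-base windows with other rows.

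Rps27l, a p53-inducible copy of Rps27, had 50.4, 48.4 and 41.1 CPM in dKO 1 to 3, against 29.5, 43.1 and 42.2 CPM in WT 1 to 3 (log2 fold change 0.28, adjusted p = 0.346). It was at 6.10, 6.35 and 6.20 counts per 100 Rps27 counts in dKO, against 4.17, 6.77 and 6.66 in WT, so the low value was that of WT 1. Coding sequences tell this pair apart. Over 255 bases, stop codon included, Rps27 and Rps27l differ at 61, and the first 60 bases are printed with the 18 differing bases in capitals.
Rps27: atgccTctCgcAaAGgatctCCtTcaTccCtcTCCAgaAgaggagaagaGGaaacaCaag
Rps27l: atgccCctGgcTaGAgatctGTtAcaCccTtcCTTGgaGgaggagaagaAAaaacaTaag

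Rpl7l1 had 31.6 to 35.7 CPM in dKO, against 33.7 to 42.8 CPM in WT, or 2.37 to 2.90 counts per 100 Rpl7 counts over all 6 libraries. Rpl36al, whose symbol falls outside the naming pattern, had 278 to 305 CPM in dKO, against 254 to 288 CPM in WT, beside Rpl36a with 453 to 563 CPM in dKO, against 409.6 to 606 CPM in WT, and held 47.5 to 62.7 counts per 100 Rpl36a counts over all 6 libraries. Rps4l, annotated by GENCODE as a transcribed processed pseudogene and known from the mouse as a copy of X-linked Rps4x, had 1.79, 1.86 and 1.44 CPM in dKO, against 0.552, 1.36 and 1.12 CPM in WT. These are 13 or fewer reads a library, and its log2 fold change of 0.69 has an interval from -0.23 to 1.61. Rpl32l, annotated by GENCODE as a processed pseudogene, shares 19.4% of its 50-base windows with Rpl32, a gene with 9625 to 15547 reads in these libraries. It had 61.8, 48.6 and 55.3 CPM in dKO, against 52.0, 31.2 and 35.6 CPM in WT (log2 fold change 0.48, adjusted p = 0.17). WT 1 was again within the dKO range, and without it Rpl32l was called higher (log2 fold change 0.71, adjusted p = 0.00538, the lowest of 20 alternatives that ran up to 0.451). The calls without WT 1, which included Rps13 as lower, came to 3 of 83 members (3.61%) beside 5.07% of all genes.

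In all, 3 members failed the filter on low counts. Rpl3l, the striated-muscle copy of Rpl3, had no read in any library. Rpl10l, which replaces Rpl10 in male germ cells, had 1 read in each of WT 1 and WT 3 and none elsewhere. Rpl39l, also best known from the germ line, had 1, 4 and 9 reads in dKO 1 to 3, against 18, 15 and 12 reads in WT 1 to 3. Their parent genes were well expressed: Rpl3 had 1732 to 1866 CPM in dKO, against 1666 to 2232 CPM in WT, Rpl10 had 1289 to 1570.3 CPM in dKO, against 1376 to 1931 CPM in WT, and Rpl39 had 465 to 591 CPM in dKO, against 446 to 552 CPM in WT.

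Within the family, fold changes were graded by the length of the coding sequence. The shortest members leaned towards dKO and the longest towards WT. Rpl41, with the shortest coding sequence of the members, encodes one of the smallest known proteins, and its whole coding sequence is printed with start and stop codons in capitals.
Rpl41: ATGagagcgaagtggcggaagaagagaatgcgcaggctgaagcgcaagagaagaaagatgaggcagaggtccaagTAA
It had 877, 765 and 716 CPM in dKO 1 to 3, against 715, 626 and 625 CPM in WT 1 to 3, with no overlap but barely so between dKO 3 and WT 1 (log2 fold change 0.26, adjusted p = 0.286). The 10 members with at most 300 coding bases had a median log2 fold change of 0.22, with 9 above 0. The 28 members of 301 to 450 bases had a median of 0.05, with 20 above 0. The 19 members of 451 to 600 bases had a median of -0.12, with 17 below 0, and the 23 longer ones a median of -0.16, with 21 below 0. Among the exceptions over 450 bases were Rpl21 (0.16), Rpl14 (0.09) and Rps14 (0.05).

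Across the 80 tested members with an annotated coding sequence, log2 fold change and log2 coding length had a Pearson r of -0.65 and a Spearman rho of -0.76. These are values across genes of the same 6 libraries, and genes are not independent replicates. The r was -0.63 in 32 40S genes, -0.69 in 48 60S genes, -0.74 in the 36 members that share no 50-base window with another row, and -0.55 without the 10 shortest. Over the 11695 other tested genes with a coding length it was 0.07, and over 78 mitochondrial ribosomal protein genes -0.14. The median log2 fold change of the 230 other genes with at most 300 coding bases was 0.02. Abundance moved with the pattern: log2 fold change and log2 mean CPM had an r of -0.59 over 83 members, and coding length and log2 mean CPM an r of 0.44. For GC content the r was 0.01. The part of abundance in this pattern was not tested.

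The gradient could be seen in single libraries. Against each gene's mean over the 6 libraries, deviation and coding length had an r of -0.75, -0.33 and -0.35 in dKO 1 to 3, against 0.64, 0.40 and 0.36 in WT 1 to 3. Since deviations of a gene sum to 0 over the libraries, these 6 values are not independent. The steepest were dKO 1 and WT 1, with -0.176 and 0.155 log2 units per doubling of coding length. With dKO 1 left out the r of the fold changes was -0.56, and with WT 1 left out it was -0.55. In WT 1 the shortest members were near their mean (median deviation 0.04) and the longest well above it (0.37), whereas in dKO 1 the shortest were high (0.27) and the longest slightly low (-0.09). In the other genes the same correlation lay between -0.12 and 0.11 in every library. The sign of the middle bins depended on the libraries used: without WT 1 the medians of the 4 bins were 0.28, 0.22, 0.02 and -0.02. The shortest bin had the highest median under each of 20 alternatives, by 0.30 to 0.45 over the longest bin. Of these, the recovered reads repeated the main fit. The length trend that was removed was estimated over all genes, so it could take out little of a trend confined to the members.

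**Figure D4:**
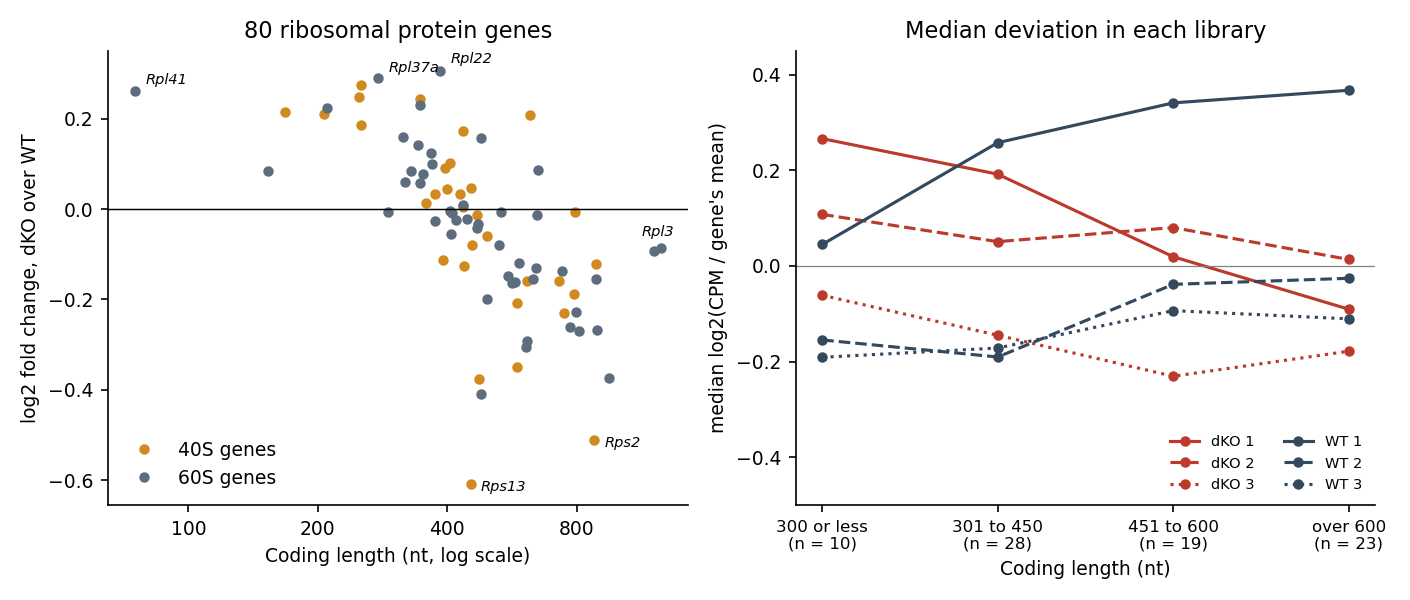
Left, log2 fold change (dKO over WT) of 80 ribosomal protein genes against coding length in nt on a log axis, coloured by subunit. Right, median log2 deviation from each gene's 6-library mean, for 4 bins of coding length, in the 3 dKO (red) and 3 WT (dark) libraries. Fold changes fall with length (r = -0.65), and from the shortest to the longest bin the median of dKO 1 goes down while that of WT 1 goes up.

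Several members cannot be counted apart from their copies. Of the 86 members, 30 share at least 20% of their 50-base windows with another row of the table and 40 share none. Rps6 and the pseudogene row Rps6-ps4 are identical over all 750 coding bases, stop codon included, and Rps6-ps4 held 97.0 to 99.3 counts per 100 Rps6 counts over the 6 libraries. Rps27 and Rps27rt are identical over 255 bases, and Rps27rt held 47.7 to 50.9 counts per 100 Rps27 counts. Altogether, 55 such rows of 28 members held 8.77 to 9.18 counts per 100 member counts in dKO, against 8.77 to 8.86 in WT. Adding them to their members gave 0 calls by edgeR (6 at an unadjusted p under 0.05), beside 3.38% of all genes, and Rps13, which shares 34.3% of its windows, then lay at -0.55 on the log2 scale with an adjusted p of 0.066.

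Ribosomal genes whose symbols fall outside the pattern were not called either. Rack1, a kinase scaffold on the 40S subunit, had 1371, 1441 and 1339 CPM in dKO 1 to 3, against 1956, 1524 and 1354 CPM in WT 1 to 3. Fau, which encodes a ribosomal protein fused to a ubiquitin-like sequence, had a log2 fold change of 0.11. None of the 6 tested was called by edgeR, DESeq2 or limma, and 0 had an unadjusted p under 0.05, beside 19.2% of all genes.

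Other genes of translation were compared with the members by the same fit. Among 17 further TOP mRNAs, which share the pyrimidine start but encode mainly translation factors, 0 were called by edgeR, DESeq2 or limma. Only 1 had an unadjusted p under 0.05, beside 19.2% of all genes, and the median log2 fold change was 0.09. Eef1a1, the factor that brings aminoacyl-tRNA to the ribosome, had 5891, 6151 and 5902 CPM in dKO 1 to 3, against 6645, 5275 and 5176 CPM in WT 1 to 3. As with the members, WT 1 was the highest library. Eef2, the translocation factor, had 1348, 1369 and 1312 CPM in dKO, against 1281, 1204 and 1127 CPM in WT, without overlap (log2 fold change 0.16, adjusted p = 0.534).

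Of 56 translation initiation factor genes tested, 2 were called higher and 0 lower by edgeR, beside 3.31% of all genes. An unadjusted p under 0.05 was found for 14, beside 19.2% of all genes. DESeq2 and limma on log2(CPM + 1) also called 2 higher, beside 5.05% and 3.72% of all genes. Limma-voom called 1 and limma on log2(CPM + 0.1) called 0, beside 3.17% and 3.22% of all genes. Eif1a, which helps the 40S subunit scan for the start codon, had 55.0, 48.8 and 49.2 CPM in dKO 1 to 3, against 34.4, 38.7 and 30.5 CPM in WT 1 to 3 (log2 fold change 0.56, adjusted p = 0.0245). Eif2s2, the beta subunit of the factor that delivers initiator tRNA, had 110.0, 106 and 92.0 CPM in dKO, against 77.9, 63.1 and 79.4 CPM in WT (log2 fold change 0.48, adjusted p = 0.0477). Both genes were higher in every dKO library than in any WT library.

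Of 78 mitochondrial ribosomal protein genes tested, 1 was called lower and 0 higher, beside 3.31% of all genes called by edgeR. An unadjusted p under 0.05 was found for 20, beside 19.2% of all genes. DESeq2 and each limma fit also called 1 lower and 0 higher, beside 5.05% of all genes under DESeq2 and 3.17% to 3.72% under limma. Their median log2 fold change was -0.18, and 64 lay below 0. Mrps14, of the mitochondrial small subunit, had 30.7, 33.4 and 36.9 CPM in dKO 1 to 3, against 49.97, 46.7 and 47.7 CPM in WT 1 to 3 (log2 fold change -0.51, adjusted p = 0.0284). All its dKO values lay below all WT values.

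Of 39 ribosome biogenesis genes, 1 was called lower and 0 higher, beside 3.31% of all genes, and the median log2 fold change was -0.12. For 11 of the 39 the unadjusted p was under 0.05, beside 19.2% of all genes. DESeq2 called 1 lower and 1 higher, beside 5.05% of all genes, and limma on log2(CPM + 1) called 1 lower, beside 3.72%. Limma-voom and limma on log2(CPM + 0.1) called 0, beside 3.17% and 3.22% of all genes. Emg1, an rRNA methyltransferase of the small-subunit pathway, had 126, 151 and 129 CPM in dKO 1 to 3, against 204, 185 and 169 CPM in WT 1 to 3 (log2 fold change -0.46, adjusted p = 0.0481). Ncl, nucleolin, which acts in rRNA transcription and processing, had a log2 fold change of 0.45, with 915, 829 and 831 CPM in dKO, against 719, 556 and 615 CPM in WT. It did not pass edgeR's test (adjusted p = 0.0811).

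Of 18 genes that signal growth to ribosomes, among them Mtor, Rptor, Larp1 and Myc, 0 were called by edgeR, DESeq2 or limma. For 3 of the 18 the unadjusted p was under 0.05, beside 19.2% of all genes. Mxd4, which opposes Myc at shared target genes, had the smallest p of the list, with 71.1, 80.3 and 78.2 CPM in dKO 1 to 3, against 92.9, 101 and 110.2 CPM in WT 1 to 3. The groups did not overlap (log2 fold change -0.41, edgeR adjusted p = 0.0563). Rptor, a subunit of mTOR complex 1, had 36.8, 35.3 and 27.0 CPM in dKO, against 37.1, 43.9 and 45.7 CPM in WT (log2 fold change -0.37, adjusted p = 0.17), again without overlap. Of 8 genes of the p53 branch of ribosomal stress, 0 were called by the same 3 tools. For 3 of the 8 the unadjusted p was under 0.05, beside 19.2% of all genes. Phlda3, a p53 target, had the smallest p, with 2.68, 3.71 and 2.99 CPM in dKO, against 0.690, 1.86 and 1.59 CPM in WT (log2 fold change 1.14, adjusted p = 0.118). Mdm2 had 141, 132 and 128 CPM in dKO, against 107, 109 and 124 CPM in WT, without overlap (log2 fold change 0.24, adjusted p = 0.221). Trp53, the p53 gene itself, went the other way, with 90.9, 95.2 and 85.5 CPM in dKO, against 127, 104 and 96.3 CPM in WT. Its groups did not overlap either (log2 fold change -0.27, edgeR adjusted p = 0.233). In all, 3 of the 8 genes had a fold change below 0. WT 1 was the lowest of the 6 libraries for 3 of the 8 genes and the highest for 3.

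Markers of naive and quiescent T cells were set beside the members because rest lowers ribosome production. Of 9 tested, 0 were called by edgeR, DESeq2 or limma, and 0 had an unadjusted p under 0.05, beside 19.2% of all genes. Ccr7, a lymph node homing receptor, had the smallest p, with 404, 369 and 241 CPM in dKO 1 to 3, against 285, 76.7 and 135 CPM in WT 1 to 3, and its groups overlapped (log2 fold change 1.03, adjusted p = 0.414). WT 1 was the highest library for 4 of the 9 genes, dKO 1 for 4 and WT 3 for 1. The 9 genes summed to 4065, 3910.1 and 3126 CPM in dKO 1 to 3, against 3971, 2540.4 and 3578 CPM in WT 1 to 3. The part of cell state in the high ribosomal protein level of WT 1 was not tested.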

How the data were processed

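RNA of sorted hepatic CD4+ T cells was made into fragmented single-end libraries (NovaSeq), 3 for dKO and 3 for WT, which the study calls independent biological replicates. The submitters' processing notes name cutadapt, Bowtie2 and the builds mm10 and GRCm39. For the versions, counter, annotation and strand setting nothing was stated (not given in the sources used here). The authors deposited raw counts per gene symbol, used for every main test. Their normalised table, called TPM, holds CPM: it sums to 1000000 per library, and 100% of its 170580 deposited values gave back the count within 0.01 reads. An edgeR test on the recovered reads had the same input as the test on the counts, so its 520 calls were the same by construction. A mapping sheet was not used.

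Genes passing filterByExpr (minimum count 10, minimum total 15) were tested with edgeR 4.0.16 in R 4.3.3 (TMM, robust quasi-likelihood, Benjamini-Hochberg over all 15694 genes, threshold 0.05). CPM in the text are counts scaled to 1000000 reads with TMM factors. Alternatives were RLE or no scaling factors, scaling to the ribosomal protein sum, totals without the most abundant symbol, other filters, DESeq2 1.42.0, limma 3.58.1 (voom, and log2 of CPM plus 1 or 0.1), the replicate number as a block and each library left out. Merging near copies, removing each library's length trend (estimated over all genes with a coding length) and counting recovered reads were chosen after seeing the data. The fit was tested on simulated data.

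Named genes were the 4 highest and 4 lowest fold changes, the 4 most and 4 least abundant members per length, duplicated genes, members failing the filter, Rpl5, Rpl11, Rps6, Rpsa and the stalk genes, and the genes with the smallest p of each other list. The fold change of Rpl13a, and Rpl41, Rack1, Eef1a1, Eef2 and the exceptions by length, were added after their values were seen. By abundance per length, Rpl13a and Rps14 are also named by the rules. A few items that these rules name are not reported here. The members and lists were chosen with earlier results of these data known. Coding lengths, shared 50-base windows and coding sequences came from GENCODE M21 on GRCm38 (1 principal transcript a gene), and start windows from RefSeq (GRCm38.p6). Lengths per transcript depend on that choice.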

Additional observations from a re-analysis of the deposited data

How the results depend on the processing

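The count of 0 members called higher became 1 with no filter, and 0 to 2 when a library was left out. The count of 0 called lower became 1 under RLE factors, with no scaling factor, with totals without the most abundant symbol and with limma on log2(CPM + 1) or log2(CPM + 0.1), 3 with no filter and 3 under DESeq2, and 0 to 1 when a library was left out. The member called in these single calls was Rps13, joined by Rps2 and Rpl29 in the sets of 3 and by Rpl32l (higher) with no filter. WT 1 was the library whose loss gave calls (Rpl22 and Rpl32l higher, Rps13 lower). Of all genes, 4.85% were called with no filter (members 4.71%), 5.05% under DESeq2 (members 3.66%) and 5.07% without WT 1 (members 3.61%). The share was 3.38% under RLE factors, 3.69% with no scaling factor and 3.33% with totals without the most abundant symbol. It was 3.72% and 3.22% with limma on log2(CPM + 1) and log2(CPM + 0.1). The replicate block gave 0 higher and 1 lower (Rps13, adjusted p = 0.0427), beside 3.13% of all genes. Under the other alternatives run no member was called, beside shares of all genes from 0.81% (without dKO 1) to 3.38% (near copies merged). Same-numbered libraries deviated together with correlations of 0.05, 0.02 and -0.08 over 15694 genes, so the numbers were not taken to pair the samples. dKO 1 correlated best with WT 1, whereas the other dKO libraries did not correlate best with their own number. The members' median log2 fold change lay between -0.10 and 0.11 when a library was left out and was 0.075 when scaled to the ribosomal protein sum. The correlation with coding length lay between -0.69 and -0.55 under every alternative. Of these, the recovered reads repeat the main fit, and the length trend removed was that of all genes.

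Of the 29 named members, 19 kept their direction in every alternative. Those that changed sign had main log2 fold changes between -0.19 (Rps4x) and 0.08 (Rpl39). When a library was left out, fold changes ranged from -0.21 to 0.044 for Rpl10, -0.078 to 0.093 for Rpl11, -0.19 to 0.021 for Rpl3, -0.045 to 0.25 for Rpl36a, -0.013 to 0.17 for Rpl39, -0.027 to 0.19 for Rps14, -0.12 to 0.21 for Rps19, -0.12 to 0.21 for Rps3a1, -0.29 to 0.015 for Rps4x and -0.22 to 0.033 for Rpsa. Scaled to the ribosomal protein sum, Rpl11 was at 0.075 and Rps3a1 at 0.098. With the length trend removed they were at 0.039 and 0.025, and Rps3a1 was at 0.015 under limma-voom and 0.019 with the replicate block. Rps19 was at -0.020 with no scaling factor, -0.0051 with totals without the most abundant symbol, -0.0024 with no filter and -0.00037 under DESeq2. The causes were not tested. With 3 libraries a group, the median half-width of a member's 95% interval was 0.33 log2 units, which is not a detection limit: a difference has to be larger to pass a threshold adjusted over all genes.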
